A study of Linum usitatissimum with 11 samples.

Results

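The 200 gene models described here gave the brightest signal in wild-type flax stems, after genes with a large difference between genotypes were set aside. They were chosen by their measured levels. From the 43455 probes of the array, the 43408 with gene model identifiers (Lus followed by a number) were taken, and 20497 of them had a value on all 11 arrays in the authors' deposited table. Those whose lbf1 and wild-type (wt) means differed by 2 log2 units or more were dropped, and the 200 with the highest wt mean were kept. Both the wt levels and the difference between genotypes were therefore used in the choice, and both are given below as descriptions.

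RNA was taken from the inner stem tissue left after peeling, from 6 lbf1 samples and 3 wt samples of the flax cultivar Diane (Linum usitatissimum). The vegetative-stage plants had grown in the field, and the RNA was hybridised to 1-colour arrays. The numbered samples are called plants here, although the labels do not say whether each was a single plant or a pool. The lbf1 plants belong to a family made with the chemical mutagen EMS, which changes single bases at many places in the genome, and the labels name no affected gene that could serve as a check of genotype. Mutant plants 1 to 4 are titled lbf1 and plants 5 and 6 lbf, with the same genotype label. Plant 1 of lbf1 and plant 3 of wt were each hybridised to 2 arrays, which the labels give as the same sample and which were averaged and counted as 1 plant.

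In flax, bast fibres lie in the outer stem and are pulled off with the bark, so that peeling leaves mainly the woody xylem with the cambial zone and pith. Xylem cells build thick lignified walls and then die, whereas bast fibre walls normally hold little lignin, and the mutant takes its name from bast fibres that do lignify. On a 1-colour array the amount of a transcript is read as the brightness of its probe, and the brightest probes are the ones whose signal can run out of the range of the scanner. The files give the Lus numbers without names, so neither the tissue nor the 200 genes were checked against marker genes, and no function is given for any gene here.

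The probes covered a narrow band at the top of the range. The wt means of the 200 ran from 14.65 to 16.35 log2, with a median of 15.34 log2, against a median of 9.35 log2 over all 20497 genes. Their median thus stood 5.99 log2 units above that of all genes. Brightness of a probe depends on how well it binds its target as well as on the amount of RNA, so the order of probes is an order of signal, and whether these transcripts are the most abundant in number was not measured. The lbf1 means of the same probes ran from 12.83 to 15.85 log2, with a median of 14.82 log2.

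The upper end of the band was set by the scanner. A pixel cannot read above 65535 units, and a spot is called saturated here when at least 50% of its pixels stood at that ceiling. Of the 200 probes, 74 were saturated on at least 1 array and 126 on none, and 88 had no saturated pixel on any array. Saturation on all 11 arrays was seen for 6 probes. On all 7 lbf1 arrays 9 probes were saturated, and on all 4 wt arrays 14 were. Saturation was nearly confined to this set, since 79 of all 43455 probes were ever saturated and 5 of these were not members. The second array of wt plant 3 had the most, with 63 saturated members. On the other arrays the number was 19 to 27 in lbf1 and 14 to 30 in wt. Of the 30 probes saturated on a single array, 26 were saturated on that second array of wt plant 3. Without that array, 48 probes were saturated on at least 1 array.

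**Figure D1:**
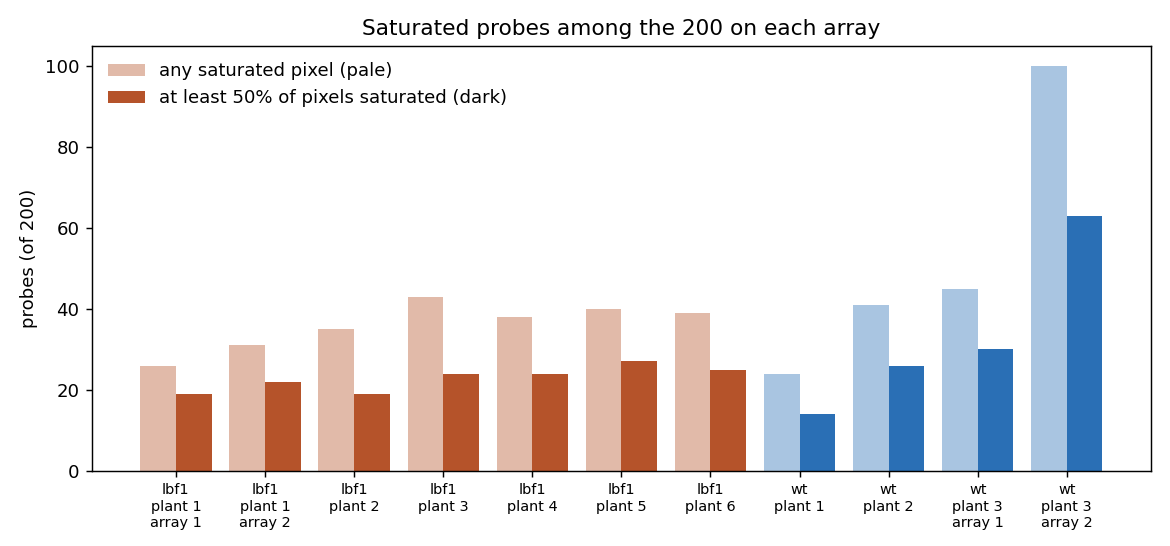
Number of the 200 probes with any saturated pixel (pale bars) and with at least 50% of pixels saturated (dark bars) on each array, lbf1 in brown and wt in blue. The second array of wt plant 3 stands apart with 63 saturated probes, while the other arrays hold 14 to 30.

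All 11 arrays were scanned at a photomultiplier gain of 450, and the ceiling in raw units was the same everywhere. The authors added 1 constant to each array so that every column has a median of 9.02 log2, and this moved the ceiling in their values. It lay at 15.68 to 16.02 log2 on lbf1 arrays and at 15.92 to 16.74 log2 on wt arrays. Averaged over plants, the ceiling was 15.85 log2 in lbf1 and 16.35 log2 in wt, a difference of -0.50 log2. A probe at the ceiling on every array therefore shows a difference of -0.50 log2 whatever its transcript did, and the 6 probes saturated on all arrays read -0.5046 to -0.5036 log2.

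**Figure D2:**
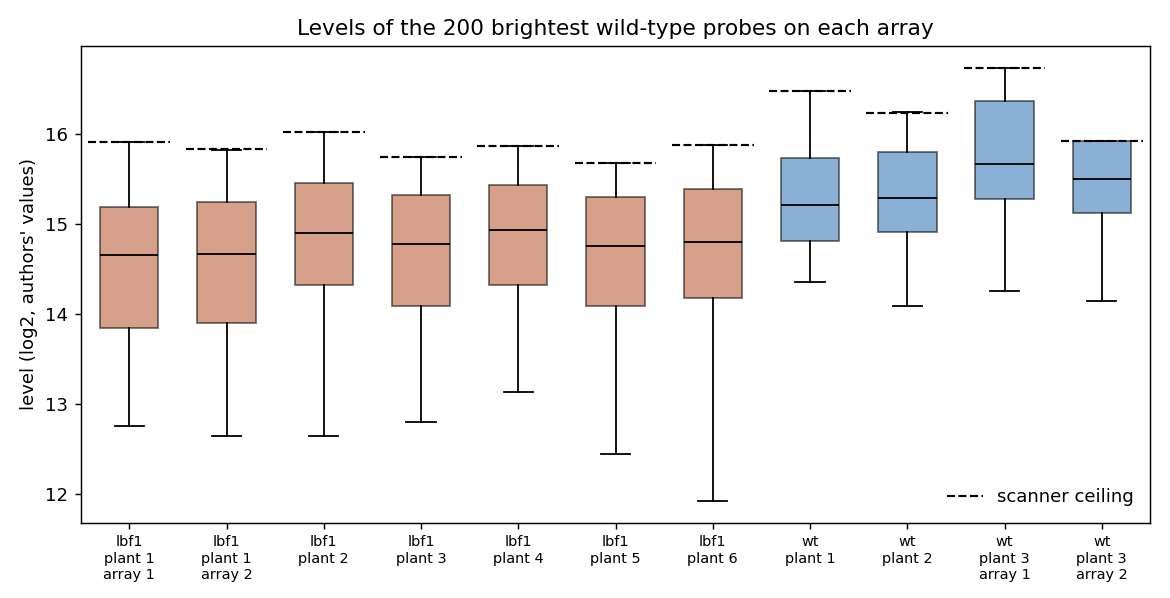
Levels of the 200 probes on each array in the authors' log2 values, with boxes from the lower to the upper quartile, a line at the median, whiskers to the lowest and highest probe, and a dashed line at the scanner ceiling of that array. The top of every box plot meets the ceiling, which is lower on the lbf1 arrays (15.68 to 16.02 log2) than on 3 of the 4 wt arrays.

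The 10 highest wt means belonged to Lus10023531, Lus10038490, Lus10019110, Lus10038044, Lus10002716, Lus10007186, Lus10032283, Lus10040811, Lus10009985 and Lus10036965. All were at 16.48, 16.24 and 16.33 log2 in wt plants 1 to 3, which are the ceilings of these plants. The highest and the last of the 10 differed by 0.0001 log2, so their order carries no information. In lbf1, Lus10040811 and Lus10036965 were saturated on all 7 arrays, at 15.87, 16.02, 15.75, 15.87, 15.68 and 15.88 log2 in plants 1 to 6. Lus10038044 was saturated on no lbf1 array, and read 15.53, 15.90, 15.55, 15.76, 15.35 and 15.79 log2 in these plants, against the ceiling in wt. No other of the 200 was saturated on all wt arrays and on no lbf1 array. For this probe the wt level is a lower bound, and the difference of means was -0.70 log2 in the authors' values, in which the ceilings themselves differ by -0.50 log2. After the quantile normalization described below it was -0.17 log2, and the probe did not pass the limma test described below. In all, 16 probes had a wt mean within 0.05 log2 of the mean wt ceiling.

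The brightest probes below the ceiling had wt levels that mostly overlapped between plants, and no order among them is read. The 6 with the highest wt means among the 126 never saturated were picked out after the saturation counts had been seen. Of these, Lus10010203 did not overlap in wt with Lus10020273, Lus10015897, Lus10002877 or Lus10013828, and was higher. Lus10010203 read 15.30, 14.81, 15.33, 15.44, 15.29 and 15.56 log2 in lbf1 plants 1 to 6, against 15.97, 15.97 and 16.02 log2 in wt plants 1 to 3. In these authors' values all lbf1 plants lay below all wt plants, with plant 2 the lowest. Lus10009819 averaged 15.13 ± 0.178 log2 in lbf1 (SD, n = 6) and 15.91 ± 0.232 log2 in wt (SD, n = 3). Lus10020273 averaged 14.17 ± 0.437 log2 in lbf1 (SD, n = 6) and 15.68 ± 0.162 log2 in wt (SD, n = 3). Both were lower in every lbf1 plant than in any wt plant in the authors' values, and Lus10020273 was lowest in lbf1 plant 1 at 13.41 log2. After the quantile normalization described below, the difference was -0.14 log2 for Lus10010203, -0.29 log2 for Lus10009819 and -1.1 log2 for Lus10020273. Of these, only Lus10020273 passed the limma test described below.

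Lus10002877 had the smallest difference of the 6 in the authors' values. It read 15.69, 15.51, 15.37, 15.43, 15.39 and 15.39 log2 in lbf1 plants 1 to 6, against 15.51, 15.70 and 15.69 log2 in wt plants 1 to 3. The genotypes overlapped, and the difference was -0.17 log2 in the authors' values but 0.27 log2 after the quantile normalization described below. Lus10013828 averaged 14.21 ± 0.716 log2 in lbf1 (SD, n = 6), with plant 3 at 12.89 log2 and plant 2 at 14.96 log2, and 15.60 ± 0.0667 log2 in wt (SD, n = 3). Lus10015897, at 15.66 ± 0.101 log2 in wt (SD, n = 3), is described below with the variable probes.

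Most of the 200 read lower in lbf1 than in wt in the authors' values. The difference of means was below 0 for 179 and above 0 for 21, and its median was -0.70 log2, with quartiles of -1.12 and -0.28 log2. Over all 20497 genes the median was 0.18 log2, and 36.5% were below 0. Taken from the median of all genes, the shift of the 200 was -0.88 log2, and the same value of -0.88 log2 was found for the 126 never saturated. In bulk tissue, fewer cells of a type and less RNA per cell cannot be told apart. The choice of probes by a high wt mean favours a negative difference, and the limit of 2 log2 units bounds it, so no test was made of this shift.

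**Figure D3:**
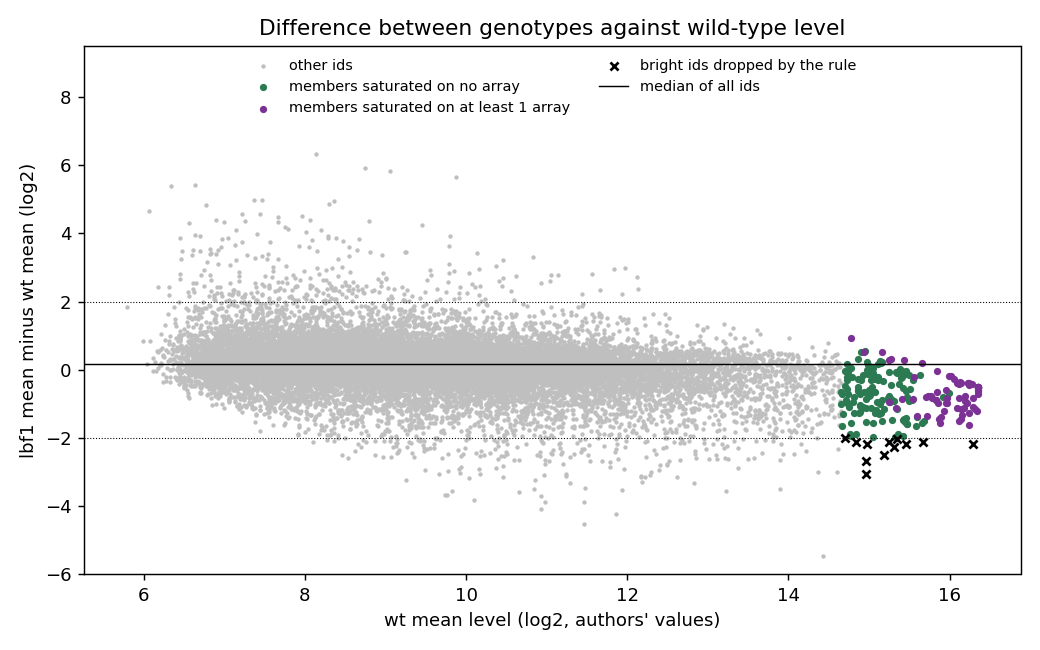
Difference of means (lbf1 minus wt, log2) against wt mean for 20497 genes, with members saturated on no array in green, members saturated on at least 1 array in purple, the 12 bright genes dropped for their difference as crosses, and the median of all genes (0.18 log2) as a line. Members lie mostly below the line, and their lower edge is the limit of -2 log2 (dotted) set by the rule.

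Every lbf1 plant showed the shift, and its size differed among them. Relative to all genes it was -1.05, -0.62, -0.94, -0.69, -0.90 and -0.83 log2 in lbf1 plants 1 to 6, measured from the wt mean. Plants 2 and 4 were the least shifted and plant 1 the most. Between 167 and 179 of the 200 probes were below the wt mean in each plant. The median level of the 200 was 14.80 ± 0.0965 log2 in lbf1 (SD of plant medians, n = 6) and 15.35 ± 0.183 log2 in wt (SD, n = 3).

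Because a choice by high wt level favours a shift of this sign, the choice was also made without each wt plant and without the limit on the difference, and the plant left out was read beside the mutants. With wt plant 1 left out, the new 200 stood at -1.15 to -0.74 log2 in the 6 lbf1 plants and at -0.10 log2 in wt plant 1, relative to all genes. With wt plant 2 left out, the values were -1.17 to -0.74 log2 in lbf1 and -0.20 log2 in wt plant 2. With wt plant 3 left out, they were -0.99 to -0.58 log2 in lbf1 and 0.19 log2 in wt plant 3. In each case all 6 lbf1 plants lay below the wt plant left out, and 183 to 186 of the new 200 were members.

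The 2 arrays of wt plant 3 differed in this measure although they came from the same sample. The first array was dim, with an upper quartile of net signal of 317 units, and the second bright, with 732.5 units. The second array minus the first had a median of -0.29 log2 over the 200 probes and of 0.27 log2 over all genes, a shift of -0.56 log2 relative to all genes. For the 126 never saturated it was -0.40 log2. With the 200 chosen on wt plants 1 and 2, the first array read 0.53 log2 and the second -0.05 log2 relative to all genes. The repeat arrays of lbf1 plant 1, close in brightness at 777 and 851 units, differed by -0.01 log2 in the same measure.

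Array brightness differed between genotypes, and its part in the shift was not tested. The upper quartile of net signal was 650 to 920 units on lbf1 arrays and 317 to 732.5 units on wt arrays. Set against the bright second array of wt plant 3 alone, the lbf1 mean was shifted by -0.73 log2 relative to all genes, and against the dim first array by -1.30 log2. The dimmest lbf1 array, that of plant 2, was dimmer than this second wt array. Between them the shift was -0.49 log2 relative to all genes, and 151 of the 200 were lower in lbf1 plant 2. Saturation limits both values, since 63 members were saturated on that wt array. Its ceiling of 15.92 log2 lay below the 16.02 log2 of lbf1 plant 2, so a member at the ceiling on both reads higher in lbf1. Within slide 1, which held lbf1 plant 1 and wt plants 1 and 2, the shift was -0.97 log2, and between the plants of the other slides it was -0.98 log2.

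The size of the difference depended on scaling, and so did its direction for many single probes. On scanner values with normexp background correction and quantile normalization, which forces all arrays to the same distribution, the median difference of the 200 was -0.33 log2, and that of the same 20497 genes was -0.01 log2. By plant it was -0.30, -0.14, -0.31, -0.16, -0.17 and -0.32 log2 in lbf1 plants 1 to 6. Between lbf1 plant 2 and the second array of wt plant 3, the quantile-scaled median was -0.20 log2, with 119 of the 200 below 0. The saturated members of that wt array limit these values too. On this scale the repeat arrays of wt plant 3 differed by 0.03 log2 over the 200. On the quantile scale 69 of the 200 were above 0 in the fit with limma. Of these, 48 had been below 0 in the authors' values, and 5 of the 48 passed the test described below as higher in lbf1. Some of the 48 were saturated. Lus10040811 and Lus10016546 were saturated on all 11 arrays, so their sign carries no information on either scale. Among the 5 that passed, Lus10033959 and Lus10017597 were each saturated on 5 arrays. Without any scaling of the scanner signal, the median difference of the 200 was -0.20 log2 against 0.68 log2 for all genes, and 73 of the 200 were higher in lbf1.

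Across all probes above background in at least 3 plants, limma called 9114 of 28267, or 32.2%, at a Benjamini-Hochberg adjusted p under 0.05 on the quantile scale. All 200 members were tested and 94 were called, 68 lower in lbf1, against 15.5% of all tested probes, and 26 higher, against 16.7%. Since the choice used this contrast, nothing is read from these counts. Of the 126 never saturated, 42 were called lower and 17 higher. This fit used spot means, which saturated pixels can lower, and only 88 members had no saturated pixel. With arrays scaled to the 75th percentile instead, 145 members were called lower and 1 higher, and with the authors' values 128 were called lower and 3 higher. The median change of all tested probes was -0.1 log2 in the first of these fits and 0.17 log2 in the second. Shares of all probes called are given for the quantile scale only, so nothing is read from the counts of other fits. Without wt plant 2, 62 members were called, 45 of them lower and 17 higher, and without wt plant 3, 17 were called higher. In the authors' values, all lbf1 plants lay below all wt plants for 125 of the 200, against 13.2% of all genes, and above them for 2, against 28.2%. A probe at the ceiling in every plant counts as below in lbf1 whatever its transcript did, since the ceilings themselves do not overlap between plants of the genotypes. Of the 126 never saturated, 67 (53.2%) lay below and 0 above. The choice of probes by a high wt mean favours the first count, so nothing is read from it.

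The widest differences among members lay near the limit of the rule. Lus10026518 read 13.44, 13.03, 13.41, 13.50, 13.79 and 12.85 log2 in lbf1 plants 1 to 6, against 15.30, 15.37 and 15.30 log2 in wt plants 1 to 3, a difference of -1.99 log2. Lus10027864 read 13.08, 13.51, 13.29, 13.28, 12.56 and 12.74 log2 in lbf1, against a mean of 15.05 ± 0.187 log2 in wt (SD, n = 3; lowest 14.90 log2, highest 15.26 log2), a difference of -1.97 log2. Neither was saturated on any array, and in both the lowest wt plant lay more than 1 log2 above the highest lbf1 plant.

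In the authors' values 21 members read higher in lbf1, a number that depends on the scaling as given above. Lus10040861 was at 15.87, 15.54, 15.64, 15.77, 15.55 and 15.79 log2 in lbf1 plants 1 to 6, against 14.91, 14.95 and 14.46 log2 in wt plants 1 to 3, a difference of 0.92 log2. It was saturated on 2 lbf1 arrays, both of plant 1, and on no wt array, so the lbf1 level of plant 1 is a lower bound. Lus10039156 was at 15.27, 15.58, 15.51, 15.53, 15.48 and 15.74 log2 in lbf1, against 14.71, 14.87 and 15.29 log2 in wt, a difference of 0.56 log2. For Lus10039156, lbf1 plant 1 lay just below wt plant 3, so the groups overlapped. By bands of difference in the authors' values, 59 members were lower by more than 1 log2, 70 by 0.5 to 1 log2, 66 were within 0.5 log2 and 5 were higher by more than 0.5 log2. Of the members never saturated, these bands held 41, 36, 47 and 2. The 6 probes saturated on all arrays fall in the band of 0.5 to 1 log2 whatever their transcripts did.

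The rule ranks genes by wt level, so it favours wt in any count of members at the top, and the counts here are a description. Of the 200, 133 were also among the 200 genes with the highest lbf1 mean, 176 among the top 400 and 198 among the top 1000. The median rank in lbf1 was 114, and the lowest was 1066, for Lus10020024. Each lbf1 plant's own top 200 held 121 to 141 of the members, and each wt plant's own top 200 held 178 to 181. The 67 genes of the lbf1 top 200 that were not members had a median wt rank of 289, and 9 of them had been dropped for a difference of 2 log2 or more.

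The 200 probes made up 14.2 ± 1.06% of net signal in lbf1 (SD, n = 6) and 20.6 ± 1.31% in wt (SD, n = 3). By plant the share ran from 12.9% in plant 1 to 15.7% in plant 2 of lbf1, against 20.5, 19.4 and 22.0% in wt plants 1 to 3. The groups did not overlap, nor did the single arrays. The choice of probes by a high wt mean favours a higher share in wt, so the shares are a description and no test was made of them. The arrays of wt plant 3 gave 25.2% when dim and 18.9% when bright, and 15.7% was the highest share of any lbf1 array. The bright array was also the one with 63 saturated members, for which signal is a lower bound.

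**Figure D4:**
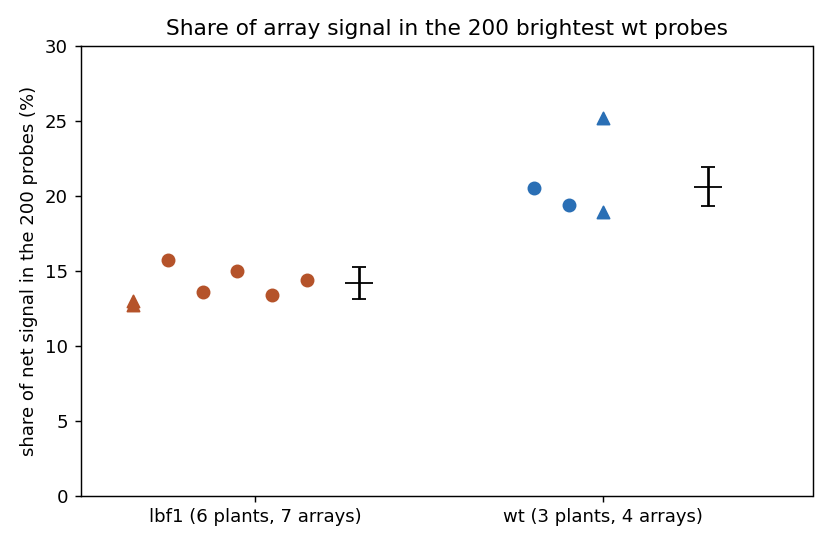
Share of summed net signal (%) in the 200 probes on each array, lbf1 in brown and wt in blue, with triangles for repeat arrays of a plant and black bars for the mean and SD over plants. The lbf1 arrays lie between 12.7 and 15.7% and the wt arrays between 18.9 and 25.2%.

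Levels of the 200 together varied between plants about as much as those of all genes, but those of the members never saturated varied more. The ceiling limits the spread of saturated probes. The median SD between plants was 0.242 log2 in lbf1 and 0.186 log2 in wt, while over all genes it was 0.229 log2 in lbf1 and 0.179 log2 in wt. Among the 126 never saturated the median SD was 0.295 log2 in lbf1 and 0.202 log2 in wt. An SD above 0.5 log2 was found for 14 members between lbf1 plants and for 20 between wt plants.

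The steadiest members in lbf1 were Lus10010070 and Lus10034988, each with an SD of 0.061 log2. Lus10034988 read 14.74, 14.82, 14.79, 14.90, 14.85 and 14.74 log2 in lbf1 plants 1 to 6, against 15.06, 15.07 and 15.19 log2 in wt plants 1 to 3. It was saturated on no array, so its small spread was not set by the ceiling. Lus10010070 averaged 15.27 ± 0.061 log2 in lbf1 (SD, n = 6) and 16.19 ± 0.0369 log2 in wt (SD, n = 3), and was saturated on 1 wt array.

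The most variable members in lbf1 separated its plants. Lus10006621 read 14.45, 12.65, 15.46, 15.29, 13.53 and 12.88 log2 in lbf1 plants 1 to 6, against 15.64, 14.93 and 15.81 log2 in wt plants 1 to 3. Lus10039379 read 15.58, 13.05, 15.66, 15.70, 14.10 and 13.55 log2 in lbf1, against 16.13, 16.24 and 16.33 log2 in wt. Both were highest in lbf1 plants 1, 3 and 4 and lowest in plants 2, 5 and 6, a gap seen within slide 2, which held plants 2 to 5. The repeat arrays of lbf1 plant 1 gave 13.83 and 15.07 log2 for Lus10006621, a wider gap than the 15.51 and 15.65 log2 for Lus10039379. Lus10039379 was saturated on 3 of 4 wt arrays.

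Lus10015897 showed the same split of lbf1 plants over a smaller range, with 14.50, 13.41, 14.72, 14.72, 13.72 and 13.58 log2 in lbf1 plants 1 to 6, against 15.69, 15.54 and 15.74 log2 in wt plants 1 to 3. In all, 6 other members had a Pearson correlation of at least 0.9 with Lus10006621 over the 6 lbf1 plants, and 3.29% of all genes did. These correlations share arrays and scaling, and with 6 plants they are a description only. The closest were Lus10015897 (r = 0.982) and Lus10039379 (r = 0.965).

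**Figure D5:**
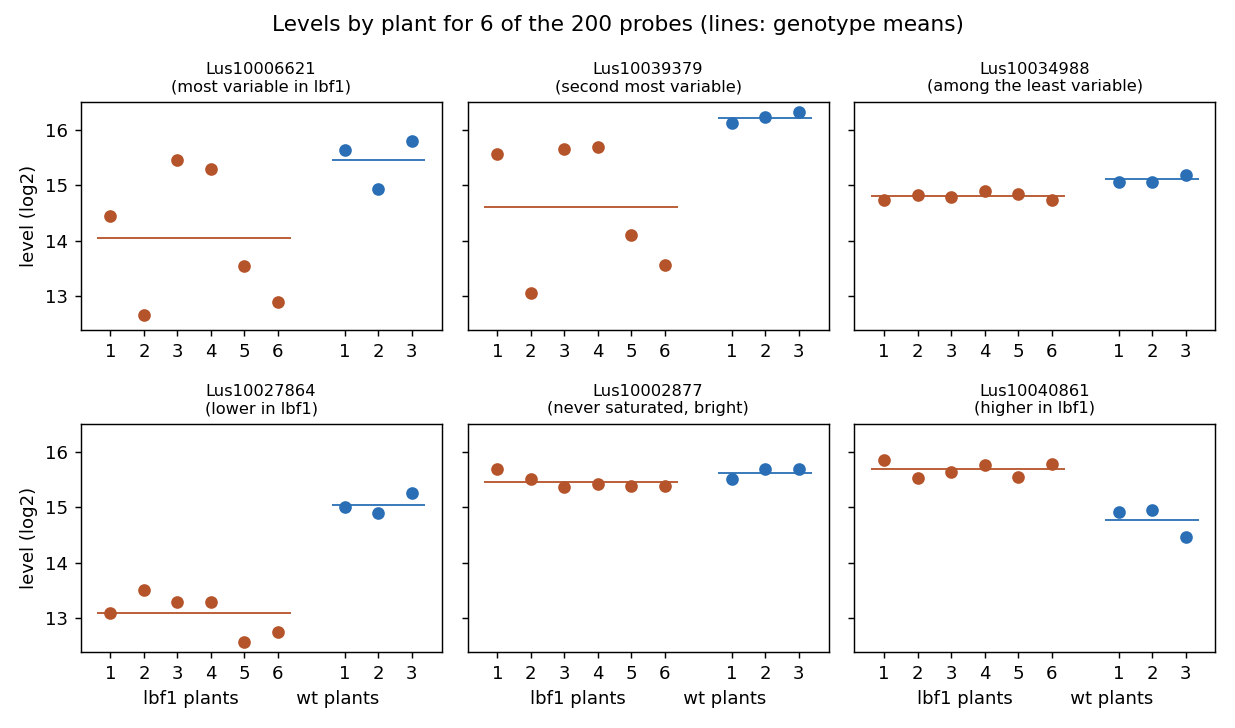
Level (log2, authors' values) of 6 of the 200 probes in each lbf1 plant (brown) and wt plant (blue), with a line at each genotype mean. Lus10006621 and Lus10039379 run from 12.65 to 15.46 log2 and from 13.05 to 15.70 log2 among lbf1 plants, whereas Lus10034988 spans 14.74 to 14.90 log2 there.

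The lower edge of the set fell between genes of nearly equal level. The last members, Lus10021671 and Lus10036402, and the next genes outside, Lus10013537 and Lus10008720, all had a wt mean of 14.65 log2. Lus10021671 averaged 13.65 ± 0.307 log2 in lbf1 (SD, n = 6), and Lus10013537, just outside, averaged 14.26 ± 0.181 log2. Above this level 12 genes had been dropped for their difference, all of them lower in lbf1. The brightest of these, Lus10039378, averaged 14.12 ± 1.60 log2 in lbf1 (SD, n = 6) and 16.29 ± 0.0688 log2 in wt (SD, n = 3). It read 15.13, 12.42, 15.75, 15.65, 13.54 and 12.22 log2 in lbf1 plants 1 to 6, the same split of plants as in Lus10039379. The next, Lus10025739, was even among plants, at 13.55 ± 0.158 log2 in lbf1 (SD, n = 6) and 15.67 ± 0.156 log2 in wt (SD, n = 3). No gene with a missing value on any array had a wt mean above the lowest member, so the demand for values on all arrays removed no bright gene.

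Spot features were also read for the 200 and for all probes. The median local background beside the 200 spots was 38 to 48 units by array, against 36 to 43 units over all probes. The median spot diameter was 50 to 55 µm by array in the 200, against 50 to 65 µm over all probes. The pixels of a spot varied less in the 200, with a median coefficient of variation of 18 to 21% by array, against 25 to 26% over all probes. On the array grid 61 members lay at the upper left, 44 at the upper right, 49 at the lower left and 46 at the lower right, and each of these areas holds 25% of all probes.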

How the data were processed

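The 200 genes, the gene lists and the measures were chosen with earlier results of these data known. The authors deposited a GenePix table per array with linear intensity, local background and percent of saturated pixels per spot, scanned at 532 nm, per the file headers. Their deposited log2 values equal log2 of the spot's net median signal plus a constant that differs between arrays, within 0.001 for at least 99.99% of values. Arrays give no counts, so the number of samples limits precision. No label says that samples were grown or extracted separately, so p-values measure the spread between these samples, which may be technical.

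Levels, differences and SDs use the authors' log2 values with repeat arrays averaged. Net signal is spot mean minus local background. The comparison lbf1 minus wt was fitted with limma 3.58.1 (R 4.3.3) over all probes, on scanner intensities after normexp correction (offset 50) and quantile normalization, with bad spots missing. Probes were tested if net signal exceeded 2.6 SDs of local background in at least 3 plants. Simulated data had 28204 probes, of which 199 were changed by 0.5 log2, 200 by 1 log2 or 199 by 2 log2. Recovery was 0%, 65.5% and 91.5%, with 0, 11 and 7 false calls. With so sparse a set of changes, the Benjamini-Hochberg step asks for smaller raw p-values than in the measured data. There, 9114 of 28267 probes were called. These percentages therefore do not give the recovery in the measured comparison, where Lus10010070 was called at -0.409 log2.

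Genes named are the 10 highest wt means, the 2 widest differences each way, the 2 highest and 2 lowest SDs in lbf1, ranks 199 and 200 with the next 2, and the 2 brightest genes dropped. The brightest 6 never saturated, the lowest rank in lbf1, the genes resembling Lus10006621 and the neighbouring identifiers were added after their values were seen. Gene lists and tissue markers could not be matched to the identifiers, and none was used. Alternatives covered the rule, scaling, background, filter, slides, repeat arrays, saturation and leaving out each plant.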

Additional observations from a re-analysis of the deposited data

Results flagged for a closer look

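Lus10010203 stood apart in 1 lbf1 plant. Its level was 14.81 log2 in lbf1 plant 2, and the nearest other lbf1 plant was at 15.29 log2. This gap was 0.639 of the whole range of the 6 plants, past the 95% limit for an outlier. It was the only such gap among 35 measures examined over the lbf1 plants, where chance marks about 1 in 20.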

How the results depend on the processing

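No median or count below changed direction, and the cause of each move below was not tested. Between the authors' values and the quantile scale, however, 48 single members changed sign. Some of the 48 were saturated, and 5 of the 48 were called. The median difference of -0.70 log2 became -0.36 with a limit of 1 log2, -0.51 for the 400 highest and -0.35 when chosen on normexp and quantile values. For the same 200 genes, 2 alternatives chosen after seeing the data gave -0.33 log2 on normexp and quantile values and -0.20 log2 on unscaled signal. Leaving out each plant gave -0.80 to -0.59 log2 and 190 to 198 shared genes, and keeping the 100 highest shared 100.

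Against 94 members called (68 lower and 26 higher in lbf1), scaling to the 75th percentile gave 146 (145 and 1), scaling to the median 118 lower and 3 higher, and the authors' values 128 lower and 3 higher. A fixed slide block gave 57 (49 and 8) and slide 1 alone 90 (77 and 13). Slide 1, the only one with both genotypes, holds 1 lbf1 plant, which is assumed to vary like the wt plants. Members never saturated gave 59 (42 and 17). Leaving out each plant gave 62 to 98 (45 to 73 lower, 17 to 25 higher). The labels do not say whether plants of the same number were paired. Deviations of same-numbered plants correlated at 0.122, -0.18 and 0.113, which cannot decide it with so few plants. The replicate block gave 48 (36 and 12). Shares of all probes called are given above for the main fit only, so nothing is read from these counts.

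Members saturated on at least 1 array numbered 46 at 90% of pixels and, chosen after seeing the data, 48 without the second array of wt plant 3. The signal share was 8.8% in lbf1 and 13.4% in wt for the 100 highest, and 21.8% in lbf1 and 29.7% in wt for the 400 highest. Saturation limits the brightest probes to bounds.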

Other observations

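Among the members and the 12 bright genes dropped for their difference, 6 pairs of identifiers differ by 1 in number, and in 4 of them both genes are members. The files do not say what neighbouring numbers stand for. In the pairs Lus10006620 with Lus10006621 and Lus10039378 with Lus10039379, the first gene was dropped and the second kept, and all 4 genes were lowest in lbf1 plants 2, 5 and 6. Lus10006620 read 14.35, 11.09, 14.78, 14.31, 12.35 and 11.78 log2 in lbf1 plants 1 to 6, against 15.18, 15.22 and 15.33 log2 in wt plants 1 to 3. Lus10004340, another dropped gene, was also lowest in lbf1 plants 2, 5 and 6, at 13.44, 12.61, 13.89, 13.75, 10.96 and 12.18 log2 in lbf1 plants 1 to 6, against 15.06, 15.02 and 14.85 log2 in wt plants 1 to 3. Whether probes of these genes bind each other's transcripts was not tested.

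Over all genes in the authors' values, the median difference was lower among genes with high wt means. The wt mean sorts the genes and is also subtracted in the difference, which favours such a trend, so it is a description and was not tested. It was 0.29 log2 in the tenth of genes with the lowest wt means, 0.32 log2 in the third, 0.05 log2 in the ninth and -0.21 log2 in the tenth with the highest, beside -0.70 log2 in the 200.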
